A study of Mus musculus with 10 samples.

Results

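The genes described here encode the enzymes that carry glucose carbon from its first phosphorylation to the citric acid (tricarboxylic acid, TCA) cycle. They were taken from a written list and matched to Ensembl identifiers by symbol. The rule sets no threshold on measured values, but the list was drawn up with earlier results of these data known. The list has 42 members of 56748 identifiers counted: 17 of glycolysis, 3 of lactate production and export, 10 of pyruvate entry into the mitochondrion, and 12 of the citric acid cycle. Of these, 41 were among the 15942 genes with enough counts to test. Hk2, a low-Km hexokinase, was the exception, at 0.305 ± 0.102 CPM (counts scaled to library size) in untreated and 0.497 ± 0.157 CPM in treated libraries (SD, n = 5 each).

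Beta cells use glycolysis as a glucose sensor. The pyruvate it makes is passed to mitochondria by the pyruvate carrier and the pyruvate dehydrogenase complex, and ATP made downstream closes potassium channels and triggers insulin release. Lactate dehydrogenase A, lactate exporters and low-Km hexokinases are normally kept low in these cells. Inflammatory activation of many cell types is known for a shift towards glycolysis, in which 6-phosphofructo-2-kinase isozymes and pyruvate dehydrogenase kinases are common control points.

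RNA was sequenced from beta cells sorted by flow cytometry out of islets of male mice of the NOD strain, an inbred strain prone to autoimmune diabetes, aged 6 to 8 weeks. There were 5 untreated libraries (numbered 1 to 5) and 5 libraries (6 to 10) from islets cultured for 48 hours with lipopolysaccharide (LPS), a bacterial ligand of Toll-like receptor 4, at 50 ng/ml. Whole islets, with their resident non-beta cells, were exposed to LPS before the sort. The labels call the samples independent but name no animals behind each, and the culture time of the untreated islets is not given in the sample labels, so p-values measure the spread between these samples.

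The deepest library was LPS 7, with 27379892 gene counts, and the shallowest LPS 9, with 18465188. The beta cell label held, with Ins1 at 36482 and Ins2 at 70376 CPM in untreated libraries, though Slc2a2 and Ucn3 of 9 beta cell markers were called lower with LPS. Endocrine neighbours were present as well: the 6 alpha cell markers summed to 4933–14228 CPM in untreated and 4100–8907 CPM in LPS libraries. None of these was called, while Ppy, the pancreatic polypeptide hormone, was called lower, with sums of 1582–2988 and 954–2153 CPM for the 2 markers of that cell type. Of 11 macrophage and leukocyte markers, 8 were too low to test and the defining leukocyte gene Ptprc had 0 counts in every library. The list summed to 31.2–45.4 CPM in untreated and 41.1–53.0 CPM in LPS libraries, mostly Cd68 and C1qa, with Cd68 and Cd14 called higher. C1qa, the remaining tested marker, went the other way and was not called. It had 18.7 ± 3.69 and 14.7 ± 1.85 CPM (SD, n = 5 each; log2 fold change -0.35, edgeR adjusted p = 0.213). Of 7 endothelial markers, Kdr was called lower and the sum was 1.28–25.3 CPM in untreated and 1.33–4.67 CPM in LPS libraries. Among 6 ductal markers Spp1 and Muc1 were called higher, and the sums were 445–572 and 522–669 CPM. Delta, acinar and mesenchymal markers had none called, though the 3 delta cell markers summed to 6072–8201 CPM in untreated and 4975–9060 CPM in LPS libraries. The part of all these cell types in the results below was not tested. In bulk RNA of sorted cells, fewer cells of a type and less RNA per cell cannot be told apart.

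After 48 hours with LPS, 1 of the 41 tested members was called higher and 1 lower. Pfkp, the platelet-type isozyme of phosphofructokinase, which catalyses the committed step of glycolysis, rose 1.402-fold (log2 fold change 0.49 ± 0.12 SE, edgeR quasi-likelihood adjusted p = 0.0457). Pdk2, a kinase that phosphorylates and inactivates pyruvate dehydrogenase, was 1.32-fold lower (log2 fold change -0.40 ± 0.10 SE, edgeR adjusted p = 0.0338). Over all genes tested, 2.84% were called higher and 0.928% lower, or 3.77% in either direction, so 2 of 41 members lay near the background. At an unadjusted p under 0.05 there were 12 of 41 members, 7 of them in glycolysis, against 15.3% of all genes. Fold changes were positive for 23 members and negative for 18, with a median of 0.01 on the log2 scale beside -0.01 for all genes tested.

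**Figure D1:**
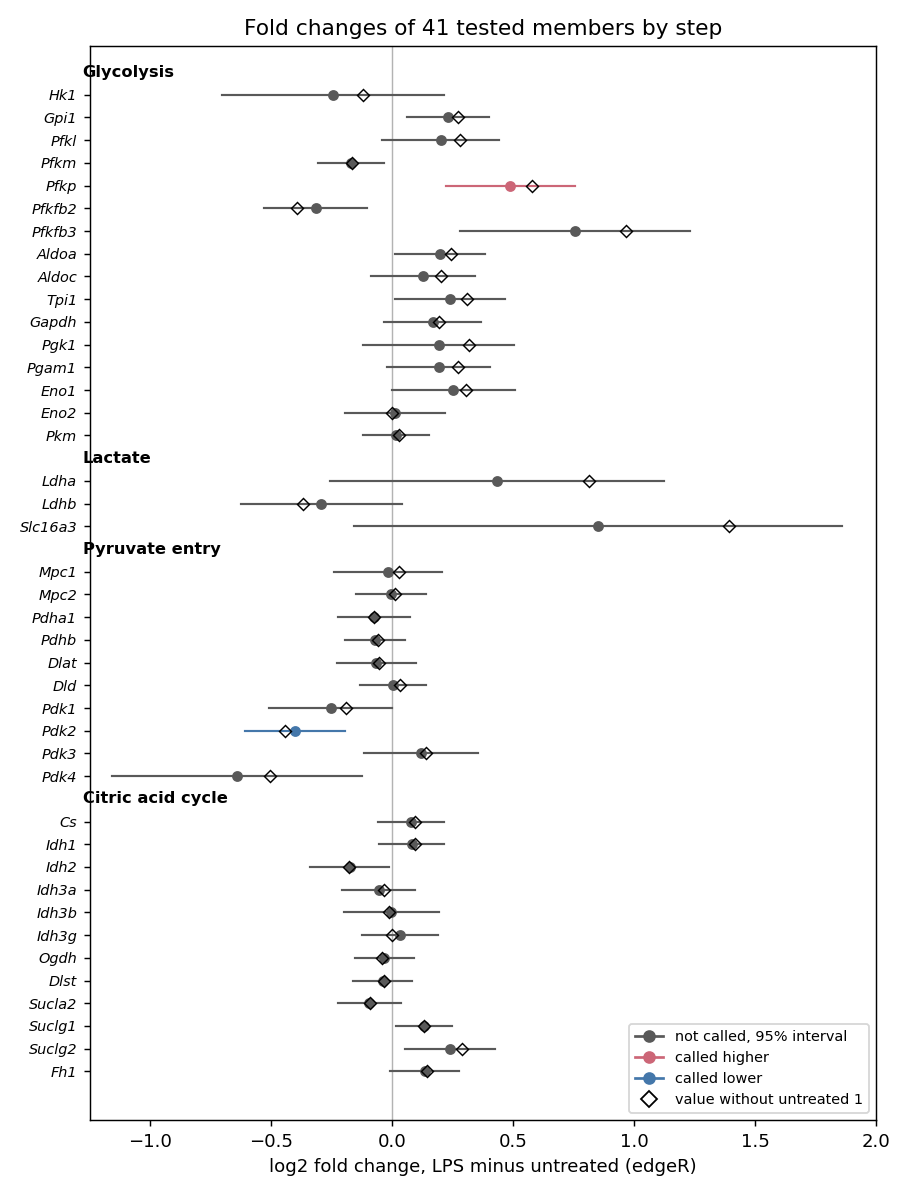
Log2 fold changes of the 41 tested members (LPS minus untreated, edgeR), grouped by step in pathway order, with 95% intervals; colour marks the called genes and open diamonds give the value without untreated 1. Glycolysis members lie mostly right of 0 (13 of 16), pyruvate entry members mostly left (8 of 10), and the citric acid cycle members lie between -0.18 and 0.24.

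In glycolysis, 13 of the 16 tested members had positive and 3 negative fold changes, with a median of 0.19 on the log2 scale, and 1 passed the test. Library values overlapped for all 16. The summed level of the 17 genes was 3105–3644 CPM in untreated and 3210–4154 CPM in LPS libraries. Leaving out untreated 1 moved the median to 0.26, and leaving out LPS 9 moved it to 0.11.

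Pfkp was the member called higher. Its level was 48.0, 34.4, 40.8, 37.5 and 33.0 CPM in untreated 1 to 5, and 54.0, 50.1, 61.1, 64.6 and 42.1 CPM in LPS 6 to 10. LPS 10 lay below untreated 1, while the other LPS libraries lay above every untreated library. The means were 38.7 ± 5.97 and 54.4 ± 8.91 CPM (SD, n = 5 each), with a 95% interval of 1.17 to 1.69 on the fold. The edgeR call was kept in 2 of 10 fits that each left out 1 library, without untreated 1 (adjusted p = 0.0157) and without LPS 10. It was lost without any of untreated 2 to 5 or LPS 6 to 9, over which the log2 fold change was at least 0.42. The adjusted p from edgeR ran from 0.0137 to 0.131 over the 10 fits.

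The bifunctional enzymes that set the level of fructose-2,6-bisphosphate, the strongest activator of phosphofructokinase, had fold changes of opposite sign, neither past the test. Pfkfb3, the isozyme that most favours the kinase reaction and a known inflammatory and hypoxic target, had 16.7, 9.61, 9.97, 9.43 and 8.42 CPM in untreated 1 to 5 and 27.6, 15.6, 13.0, 20.5 and 15.001 CPM in LPS 6 to 10. Only untreated 1 overlapped the LPS range. The fold was 1.69 (95% interval 1.21 to 2.35; log2 0.75 ± 0.22 SE; edgeR adjusted p = 0.0881), and without untreated 1 it was 1.95 (log2 0.97 ± 0.19 SE; edgeR adjusted p = 0.0142). Pfkfb2, another isozyme of this family, had 72.6, 91.5, 97.7, 90.8 and 108 CPM in untreated 1 to 5 and 63.6, 70.4, 78.9, 79.1 and 77.9 CPM in LPS 6 to 10. Again untreated 1 was the one untreated library inside the LPS range. Its log2 fold change was -0.32 ± 0.10 SE (edgeR adjusted p = 0.110), and -0.39 ± 0.08 SE without untreated 1 (edgeR adjusted p = 0.0186). Among the 10 leave-out fits, the one without untreated 1 called both genes. That library was known in advance to differ, so this fit is no independent support. With all libraries kept, Pfkfb3 was called in 4 of 10 other settings: no filter on low counts (edgeR adjusted p = 0.0179), DESeq2 (adjusted p = 0.0173), limma-voom with sample weights (adjusted p = 0.0367) and 1 surrogate variable (edgeR adjusted p = 0.00533). Pfkfb2 was called in 2 of 10, by DESeq2 (adjusted p = 0.0471) and with 1 surrogate variable (edgeR adjusted p = 0.00339).

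**Figure D2:**
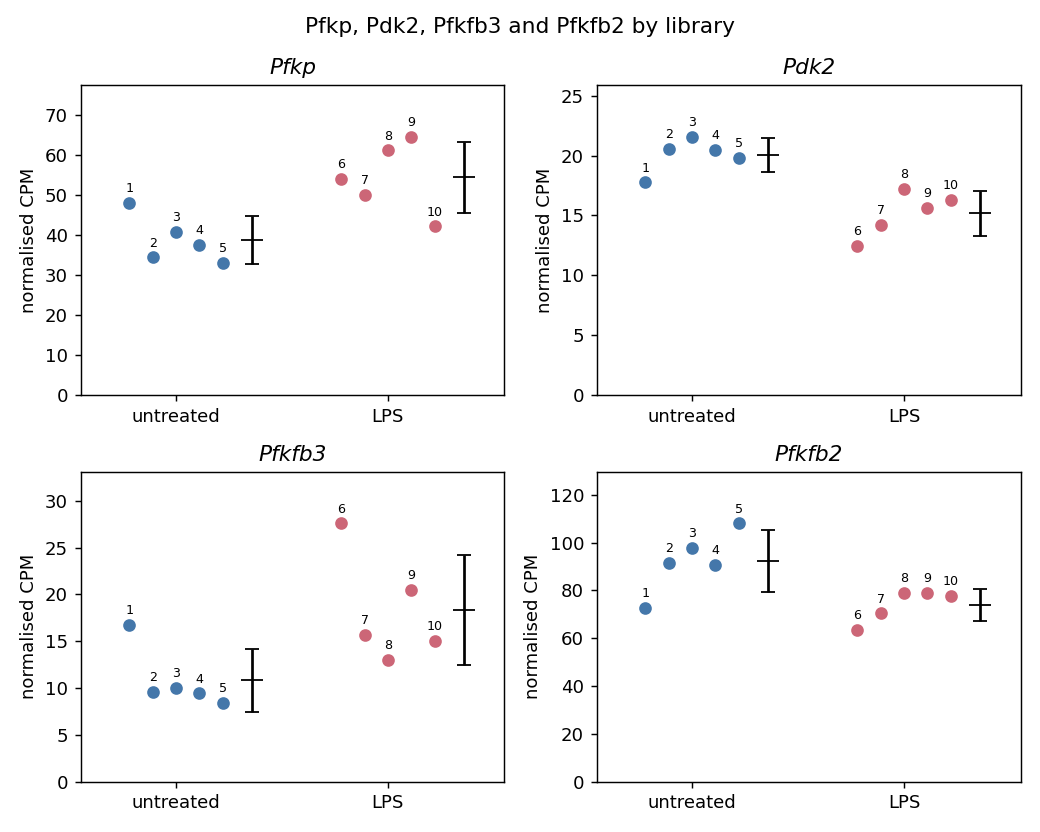
Normalised CPM of Pfkp, Pdk2, Pfkfb3 and Pfkfb2 in each library, by group, with the axis starting at 0. Pdk2 alone has groups that do not overlap, and untreated 1 is the library of its group nearest to, or inside, the LPS range in all 4 genes.

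The sequence upstream of the start site is shown for Pfkp, Pfkfb3 and Pdk2, since these members carry the calls and the largest shift among the phosphofructokinase regulators. Each line holds 250 bases before an annotated start, 5′ to 3′ on the gene's strand, from RefSeq with build GRCm38.p6. Capitals mark ACGTG or GCGTG on either strand, the core letters bound by hypoxia-inducible factors. CACGTG, the E-box, contains ACGTG on both strands. The windows are Pfkp at chr13:6648772-6649021, Pfkfb3 at chr2:11502091-11502340 and Pdk2 at chr11:95041372-95041621, all on the minus strand, and for Pfkfb3 and Pdk2, which have a second window each, the one with more matches was chosen.
Pfkp: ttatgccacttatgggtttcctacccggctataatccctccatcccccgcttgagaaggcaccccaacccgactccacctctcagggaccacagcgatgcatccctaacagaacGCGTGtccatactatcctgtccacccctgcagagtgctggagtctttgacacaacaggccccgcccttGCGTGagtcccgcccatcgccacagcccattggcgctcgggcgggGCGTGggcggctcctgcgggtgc
Pfkfb3: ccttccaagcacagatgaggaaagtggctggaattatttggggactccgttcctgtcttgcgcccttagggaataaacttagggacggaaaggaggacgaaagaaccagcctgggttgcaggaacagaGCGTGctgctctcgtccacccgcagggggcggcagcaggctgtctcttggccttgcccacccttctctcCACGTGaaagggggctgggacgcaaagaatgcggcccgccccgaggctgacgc
Pdk2: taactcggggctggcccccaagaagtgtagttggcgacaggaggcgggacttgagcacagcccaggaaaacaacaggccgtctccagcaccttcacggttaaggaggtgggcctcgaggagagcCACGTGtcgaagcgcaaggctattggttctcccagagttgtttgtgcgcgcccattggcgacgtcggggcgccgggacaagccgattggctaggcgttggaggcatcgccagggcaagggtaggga

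Counted back from the start site, the Pfkp window had GCGTG at -136, -68 and -23. The Pfkfb3 window had GCGTG at -122 and an E-box at -53, and its other window had 1 ACGTG, at -60. The Pdk2 window had 1 E-box, at -126, and its other window had none of these letters. Windows were found for 41 of 42 members, 64 in all, and 46 of them (71.9%) had ACGTG or GCGTG, against 38.6% of 32851 windows of the same length. CACGTG was in 12.5% of member windows and 6.02% of all windows. These shares are per window. Some members, such as Ogdh, have several windows that partly overlap, so the same site can count more than once. Median GC content was 61.0% for member windows and 52.4% for all, which bears on any match to letters rich in G and C. A consensus NF-kB motif was in 0 member windows and 0.356% of all, and an interferon-stimulated response element motif was in 1 member window (Suclg2, 1.56%) and 2.98% of all. The search covered both strands, and a match to letters is not a measured site.

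The other phosphofructokinase genes did not pass the test. Pfkl, the liver-type isozyme, had 111 ± 14.6 and 128 ± 19.9 CPM, and Pfkm, the muscle-type isozyme, had 64.3 ± 3.68 and 57.2 ± 3.45 CPM (SD, n = 5 each; log2 fold change -0.17, edgeR adjusted p = 0.196). Of the counts of the 3 isozymes together, not corrected for length, the share of Pfkp was 18.01 ± 1.52% in the untreated group and 22.7 ± 2.11% in the LPS group. The share of Pfkm was 30.2 ± 3.06% and 24.1 ± 2.36%, and that of Pfkl was 51.8 ± 2.91% and 53.3 ± 3.37% (SD, n = 5 each). LPS 10 had a Pfkp share of 19.0%, inside the untreated range of 15.9–19.5%, and the other LPS libraries lay at 23.0–24.3%.

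The abundant enzymes of lower glycolysis were not called. Aldoa, the main aldolase, had 944, 777, 813, 808 and 869 CPM in untreated and 913, 814, 960, 1084 and 1059 CPM in LPS libraries, in number order. The groups overlapped, and the fold was 1.15 (95% interval 1.01 to 1.304; edgeR adjusted p = 0.293). Pkm, pyruvate kinase, whose splice forms a gene count cannot separate, had 655 ± 21.1 and 662 ± 48.0 CPM, with a 95% interval of 0.918 to 1.11 on the fold. Gpi1, the isomerase before phosphofructokinase, was chosen for mention after its values were seen. It had 282 ± 25.5 and 331 ± 27.8 CPM (SD, n = 5 each; log2 fold change 0.23, edgeR adjusted p = 0.153), and the groups overlapped by LPS 7 alone. Of 10 other settings that kept all libraries, 1 called Gpi1 higher, limma-voom with sample weights (adjusted p = 0.0295). The remaining members, Hk1, Aldoc, Tpi1, Gapdh, Pgk1, Pgam1, Eno1 and Eno2, had log2 fold changes from -0.24 to 0.25, none called. Reads of Eno1 may be split with its near-identical copy Eno1b, whose counts were 20.2% of those of Eno1, and adding them did not lead to a call.

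Lactate genes were low. Ldha, which turns pyruvate into lactate, had 9.02, 3.89, 3.93, 3.83 and 2.88 CPM in untreated 1 to 5 and 6.64, 2.82, 7.18, 8.33 and 7.09 CPM in LPS 6 to 10. Untreated 1 was the highest library of all 10 and LPS 7 the lowest. The fold was 1.35 with a 95% interval of 0.837 to 2.18 (edgeR adjusted p = 0.589), and without untreated 1 it was 1.76 (edgeR adjusted p = 0.121). Slc16a3, the lactate exporter of glycolytic cells, had 2.06, 0.527, 0.845, 0.258 and 0.904 CPM in untreated and 1.66, 0.651, 1.71, 2.74 and 1.70 CPM in LPS libraries. Its groups overlapped through untreated 1 and LPS 7 as well, and the fold of 1.80 had a 95% interval of 0.897 to 3.63 (edgeR adjusted p = 0.430). Without untreated 1 it was 2.62 (edgeR adjusted p = 0.104). Ldhb, the isozyme that favours the reverse reaction, had 6.85 ± 1.09 and 5.60 ± 0.952 CPM (SD, n = 5 each; log2 fold change -0.29 ± 0.15 SE, edgeR adjusted p = 0.400). With 3 tested and 0 called, the step had a median log2 fold change of 0.43.

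At the entry to the mitochondrion, 8 of 10 members had negative fold changes with a median of -0.07 on the log2 scale, and Pdk2 alone was called. Pdk2 had 17.8, 20.6, 21.6, 20.4 and 19.8 CPM in untreated 1 to 5 and 12.4, 14.2, 17.3, 15.6 and 16.3 CPM in LPS 6 to 10. Every LPS library lay below every untreated library, and Pdk2 was the single member of 41 with separated groups, beside 1.87% of all genes with LPS below and 3.84% with LPS above (5.71% in either direction). The means were 20.03 ± 1.42 and 15.2 ± 1.88 CPM (SD, n = 5 each), and the 95% interval on the fold was 0.656 to 0.874. The edgeR call was kept in 3 of 10 leave-out fits, without untreated 1, LPS 8 or LPS 10. Over all 10 the log2 fold change was between -0.46 and -0.35 and the edgeR adjusted p between 0.0237 and 0.0983, above 0.05 without untreated 2, 3, 4 or 5 or LPS 6, 7 or 9.

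The other pyruvate dehydrogenase kinases were not called. Pdk4, the starvation-induced kinase, had 11.5, 8.31, 6.04, 9.81 and 6.57 CPM in untreated and 4.78, 6.37, 6.42, 6.82 and 2.73 CPM in LPS libraries. The groups overlapped, and the log2 fold change was -0.64 ± 0.24 SE (edgeR adjusted p = 0.197). Pdk1, a known hypoxia target, had 31.3 ± 3.55 and 26.3 ± 4.67 CPM, and Pdk3 had 15.3 ± 2.06 and 16.6 ± 1.66 CPM (SD, n = 5 each). Of the complex itself, Pdha1, the catalytic alpha subunit, had 91.1 ± 1.56 and 86.4 ± 8.50 CPM (95% interval of the fold 0.856 to 1.05). Pdhb, the beta subunit, had 76.5 ± 2.39 and 72.8 ± 4.38 CPM (interval 0.874 to 1.04). Dlat and Dld, which complete the complex, and Mpc1 and Mpc2, the mitochondrial pyruvate carrier, had log2 fold changes between -0.07 and 0.00.

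The citric acid cycle had the narrowest range of fold changes of the 4 steps. None of its 12 members was called, 3 had an unadjusted p under 0.05, fold changes ran from -0.18 to 0.24 on the log2 scale and the median was 0.01. The 95% intervals of all 12 lay between 0.791-fold and 1.34-fold. Their summed level was 1204–1274 CPM in untreated and 1198–1288 CPM in LPS libraries. Idh2, the mitochondrial NADP-dependent isocitrate dehydrogenase, had 258, 259, 240, 245 and 301 CPM in untreated and 222, 209, 241, 228 and 253 CPM in LPS libraries. The groups overlapped, and Idh2 differed by -0.18 ± 0.08 SE on the log2 scale (edgeR adjusted p = 0.279). Ogdh, the first subunit of 2-oxoglutarate dehydrogenase, had 252.3 ± 11.5 and 247 ± 10.3 CPM (SD, n = 5 each; interval of the fold 0.898 to 1.06). Suclg2, the GTP-forming subunit of succinyl-CoA ligase, was named after its values were seen as the member farthest from 0, at 21.6 ± 1.69 and 25.5 ± 2.54 CPM (SD, n = 5 each; log2 fold change 0.24 ± 0.09 SE, edgeR adjusted p = 0.183).

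**Figure D3:**
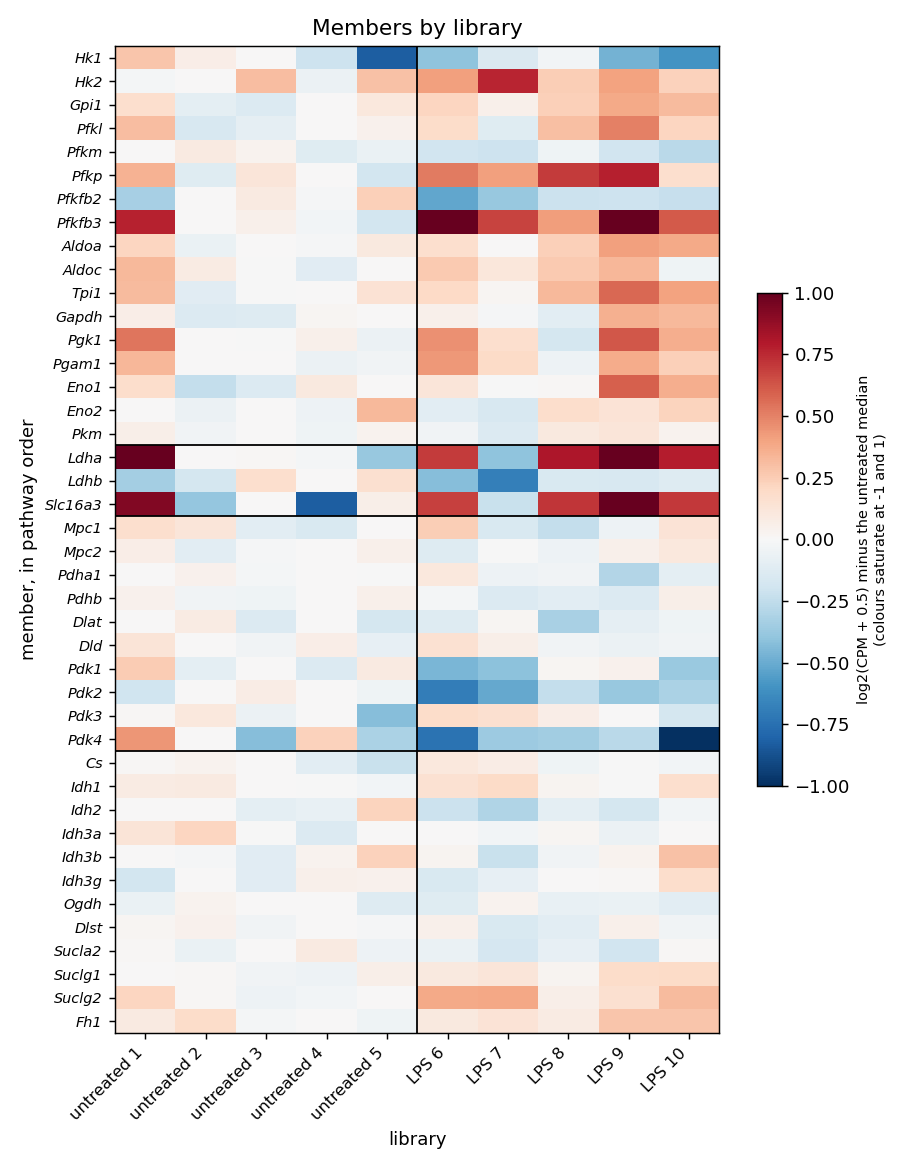
Each member in each library as log2(CPM + 0.5) minus the untreated median, in pathway order, with the 2 groups and the 4 steps divided by lines. Untreated 1 is raised through much of glycolysis and lactate genes, LPS 7 lies near the untreated median for most of these genes, and the citric acid cycle rows are mostly pale in all 10 libraries.

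Untreated 1 stood apart from its group in glycolysis. It was the highest untreated library for 13 of 17 glycolysis genes (76.5%) and 21 of 42 members (50.0%), against 23.3% of all genes tested. Its median log2 deviation from the other untreated libraries was 0.24 over glycolysis, 1.12 over the lactate genes and 0.03 over the citric acid cycle. Among 15 tested genes of a hypoxia list it was highest for 10 (66.7%). Other values of this library moved with these. Its reads outside genes were 10.3% of all reads, against 12.5–12.9% in untreated 2 to 5, its alpha cell markers summed to 14228 CPM against 4933–9660 CPM, and its endothelial markers to 1.28 CPM against 12.7–25.3 CPM. LPS 6 shared some of these traits within its own group. Its reads outside genes were 8.84% of all reads, against 10.7–12.1% in the other LPS libraries. It was highest of its group for 6 of 15 hypoxia genes. Its endothelial markers summed to 1.51 CPM, though LPS 10 was lower, at 1.33 CPM. Unlike untreated 1, LPS 6 was highest for only 2 of 17 glycolysis genes. Its alpha cell markers, at 7830 CPM, lay inside the range of the other LPS libraries. The part of these values in the result was not tested.

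Within the LPS group, LPS 9 was highest for 11 of 17 glycolysis genes (64.7%), against 13.6% of all genes. LPS 7 was lowest for 7 of 17 glycolysis genes (41.2%) and for all 3 lactate genes, against 15.9% of all genes. LPS 9 was also the shallowest and LPS 7 the deepest library. Without untreated 1, edgeR called Pfkfb3 and Pfkp higher and Pfkfb2 and Pdk2 lower, where 2.83% of all genes were called higher and 1.03% lower. The groups then did not overlap for Pfkp, Pfkfb3 and Suclg2, with LPS above (7.32% of the 41 tested members, beside 5.41% of all genes). For Pfkfb2 and Pdk2, LPS lay below (4.88%, beside 3.34% of all genes). Untreated 1 was set apart in advance as a library that differs, and it was an outlier of its group for Pfkfb3 and Suclg2. The calls and separations gained by leaving it out are therefore no independent support. LPS 6, like untreated 1 in its own group, was highest for Pfkfb3 and lowest for Pfkfb2 and Pdk2. With untreated 1 kept and LPS 6 left out, edgeR called 0 members higher and 0 lower.

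Ratios between isozymes within a library do not depend on its total count. Of 10 ratios, each tested by an exact two-sided permutation of the libraries, for which 0.00794 is the smallest possible p, none had an adjusted p under 0.05 (Benjamini-Hochberg over the 10). The ratio of Idh1, the cytosolic isocitrate dehydrogenase, to Idh2 was higher in every LPS library, from -2.60 to -2.23 on the log2 scale, against -2.98 to -2.63 in untreated ones. The groups did not overlap and differed by 0.25 (exact p = 0.00794, adjusted 0.0794). Suclg2 to Sucla2, the GTP-forming over the ATP-forming subunit of succinyl-CoA ligase, differed by 0.33 (exact p = 0.0159, adjusted 0.0794). Pfkfb3 to Pfkfb2 differed by 1.06, or 2.09-fold (exact p = 0.0317, adjusted 0.0992). It was -2.12 in untreated 1 and -3.68 to -3.25 in the other untreated libraries, against -2.60 to -1.20 in LPS libraries. Pfkm to Pfkl differed by -0.37 (exact p = 0.0397, adjusted 0.0992) and Pfkp to Pfkl by 0.29 (exact p = 0.0556, adjusted 0.111). The remaining 5 ratios had exact p-values from 0.0794 to 0.698.

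**Figure D4:**
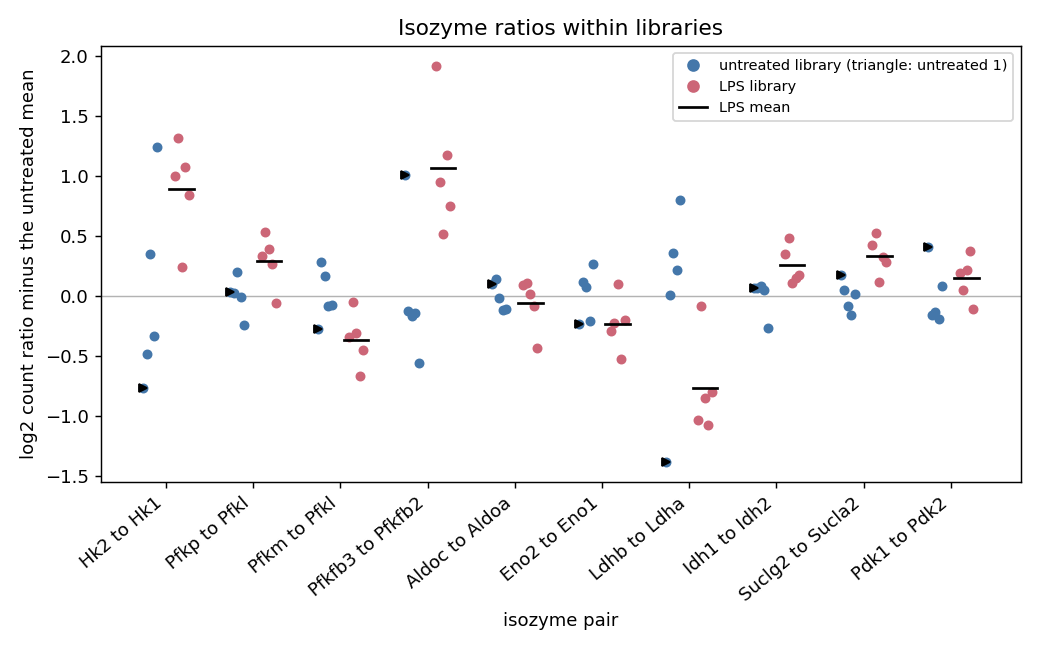
Log2 count ratio of 10 isozyme pairs in each library, minus the untreated mean of that pair; triangles mark untreated 1 and bars the LPS mean. Idh1 to Idh2 is the pair whose groups do not overlap, and the Pfkfb3 to Pfkfb2 groups overlap through untreated 1.

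Levels between genes were compared as CPM per kb of exon, over the union of all annotated exons of a gene. Aldoa led at 289 CPM per kb in untreated libraries, followed by Gapdh at 136, Pkm at 131 and Idh2 at 101 CPM per kb. The phosphofructokinases ran from Pfkm at 19.3 and Pfkl at 16.7 to Pfkp at 2.89 CPM per kb, so the isozyme that rose was the lowest of the 3 in untreated cells. At the low end were Ldha at 1.42, Hk1 at 0.568, Slc16a3 at 0.173 and Hk2 at 0.0511 CPM per kb. In LPS libraries Pfkp was at 4.06 and Pfkm at 17.1 CPM per kb, and the order of the 3 isozymes had Pfkl first at 19.2 CPM per kb. The order of Pfkm and Pfkl depends on this length measure. In CPM without it, Pfkl was above Pfkm in both groups, at 111 against 64.3 in untreated and 128 against 57.2 in LPS libraries.

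**Figure D5:**
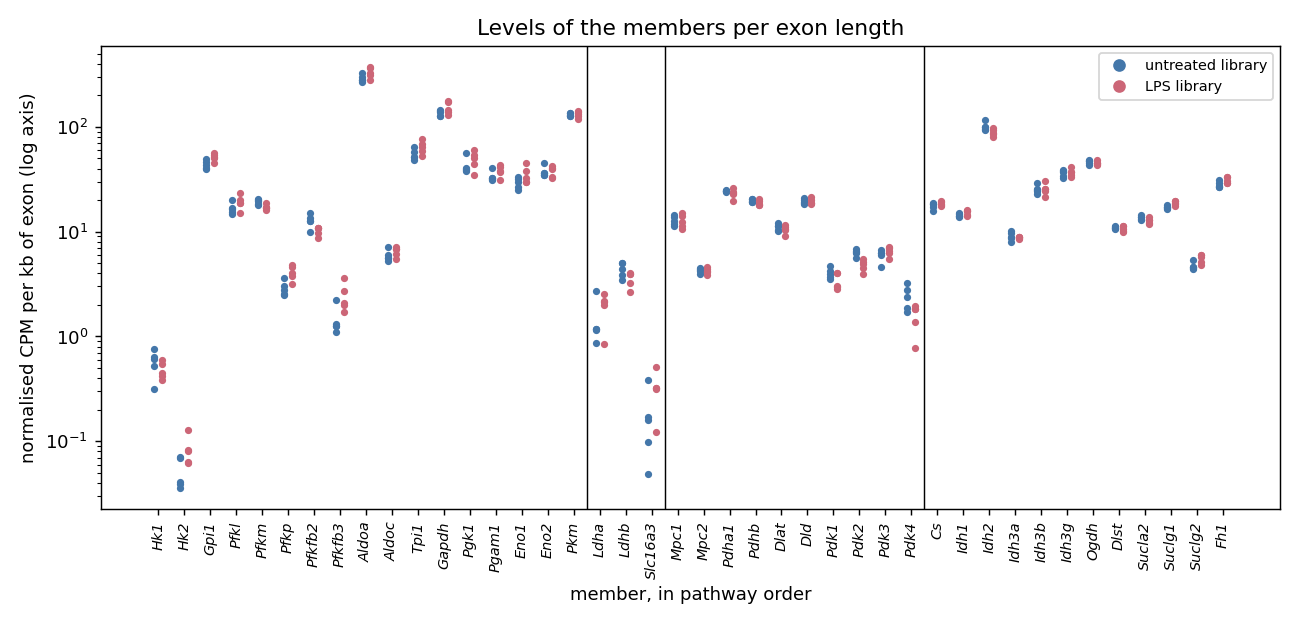
Normalised CPM per kb of exon (log axis) for the 42 members in pathway order, 1 point per library and group. Levels span from Hk2 at 0.0511 to Aldoa at 289 CPM per kb in the untreated means, and the groups overlap for all members but Pdk2.

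Among 30 further genes of the pathway, 29 were tested, with 1 called higher and 1 lower, beside 2.84% and 0.928% of all genes tested. Fbp1, fructose-1,6-bisphosphatase, which catalyses the reverse of the phosphofructokinase step, had 56.0 ± 11.4 and 87.4 ± 7.81 CPM (SD, n = 5 each; log2 fold change 0.64 ± 0.12 SE, edgeR adjusted p = 0.00718). Slc2a2, the beta cell glucose transporter, had 372 ± 45.7 and 205 ± 10.2 CPM (log2 fold change -0.86 ± 0.08 SE, edgeR adjusted p = 4.3e-05). Listed aconitase, succinate dehydrogenase and malate dehydrogenase genes of the citric acid cycle were among the 27 tested and not called.

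Of 15 tested genes of the hypoxia list, 2 were called higher, beside 2.84% of all genes tested, with a median log2 fold change of 0.02. These were the collagen prolyl hydroxylase subunits P4ha1 (log2 fold change 0.53, edgeR adjusted p = 0.00214) and P4ha2 (0.24, edgeR adjusted p = 0.0380). The P4ha2 call was lost with no filter on low counts (edgeR adjusted p = 0.0941), without untreated 1 (0.0700) and without LPS 9 (0.112). Hif1a, the oxygen-regulated subunit of hypoxia-inducible factor, had 72.4 ± 7.99 and 82.8 ± 14.7 CPM (SD, n = 5 each; log2 fold change 0.19, edgeR adjusted p = 0.476).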

How the data were processed

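Raw counts per Ensembl gene were analysed as deposited, 1 table per library. Per the submitters' processing notes, reads were handled on build GRCm39 with STAR, HTSeq, SAMtools, Trimmomatic, FastQC and DESeq2, in unstated roles. Strand use and annotation release are unstated, so overlapping or antisense genes can share counts, and NOD reads met a reference of another strain. Rows naming no gene (15.4–20.2% of reads) were left out. In R 4.3.3, edgeR 4.0.16 kept genes by filterByExpr (minimum count 10, total 15), scaled by TMM, and ran the quasi-likelihood F test over 15942 genes, called at a Benjamini-Hochberg adjusted p under 0.05. CPM are TMM-normalised. Exon lengths came from another annotation (GENCODE, GRCm38). Of 2 Aldoa identifiers, the one with 209749 counts was used (the other had 245). Ratios had 0.5 counts added.

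Alternatives used DESeq2 1.42.0, limma 3.58.1 (voom) and sva 3.50.0. Members and lists were chosen with earlier results of these data known. Named were called members with every library's value, the 2 most abundant uncalled members of each step, and the 5 uncalled members with the largest changes. Other members are given by range or marked as chosen afterwards, and Pfkl, Pfkm, Pdk1, Pdk3 and Idh1 were also added as relatives of named genes. 1 gene of the wider pathway stayed in the fit but is not reported here. The fit was tested on simulated data.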

Additional observations from a re-analysis of the deposited data

Results flagged for a closer look

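In 84 groups of 5 libraries (42 members in each condition), 6 had 1 library far from the other 4 by Dixon's criterion, or 7.14%, where chance marks about 1 in 20. Of these, 5 were in untreated 1. Pfkfb3 was 16.7 CPM there and 8.42–9.97 CPM in untreated 2 to 5. Pgk1, phosphoglycerate kinase, was 127 CPM there and 84.6–90.9 CPM in the others. Pgam1, phosphoglycerate mutase, was 80.3 CPM against 61.1–64.1 CPM, Ldha was 9.02 CPM against 2.88–3.93 CPM, and Suclg2 was 24.6 CPM against 20.4–21.3 CPM. The sixth was Eno2, the neuronal enolase, at 212 CPM in untreated 5 against 162–170 CPM in the other untreated libraries.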

How the results depend on the processing

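Pdk2 and Pfkp kept their direction under all 20 other settings, but the calls did not hold throughout. Of 10 settings that kept all libraries, Pfkp was called in 7 and Pdk2 in 9. Scaling by DESeq2 size factors or upper quartiles, and a filter at 1 CPM, left 1 member called higher and 1 lower. With no filter, 2 members were called higher. DESeq2 called 976 genes, with 2 members higher and 2 lower, and 1 surrogate variable gave 1335 genes, also 2 and 2. Limma-voom with sample weights called 994 genes and 3 members higher (Gpi1, Pfkfb3 and Pfkp), and without weights 0 members higher. Leaving the 20 most abundant genes out of library sizes gave 0 higher. The share of the unnamed identifier ENSMUSG00000119584, a covariate chosen after seeing the data (0.366–0.942% of gene counts in untreated and 0.227–0.427% in LPS libraries), gave 181 genes and 0 members in either direction. With it, edgeR adjusted p was 0.159 for Fbp1, 0.0748 for P4ha1 and 0.391 for P4ha2, and 0.00280 for Slc2a2, which was still called. Without 1 library at a time, 0 to 2 members were called higher and 0 to 2 lower, with 2 and 2 without untreated 1. The cause of these differences was not tested.

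Members near 0 changed sign. Eno2 was -0.00802 with 1 surrogate variable, -0.00983 without the 20 abundant genes and -0.0940 with the covariate, where Pkm was -0.00702 and -0.0354 under the last 2. Mpc2 was 0.0171 with weights and 0.0174 with the covariate, which put Dlat at 0.0515. Dld was -0.0121 with upper-quartile factors, -0.00602 at the 1 CPM filter, -0.0123 with weights and -0.0225 without the abundant genes, and Idh3b was 0.000868 with weights. Without 1 library, log2 fold changes ran from -0.0327 to 0.0894 for Eno2, -0.0123 to 0.0451 for Pkm, -0.0930 to 0.0320 for Mpc1 and -0.0344 to 0.0179 for Mpc2. They ran from -0.0417 to 0.0315 for Dld, -0.0793 to 0.0497 for Idh3b and -0.0161 to 0.0611 for Idh3g.

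Among ratios without 1 library, the log2 difference was 0.847 to 1.31 for Pfkfb3 to Pfkfb2, -1.11 to -0.569 for Ldhb to Ldha, 0.186 to 0.290 for Idh1 to Idh2 and 0.283 to 0.386 for Suclg2 to Sucla2. These 4 reached an adjusted exact permutation p of 0.0397 without untreated 1. That library was itself the outlier of its group for Pfkfb3, Ldha and Suclg2, so for their ratios this p is no independent support. Aldoc to Aldoa ran from -0.103 to 0.0326, positive without LPS 10. No paired analysis was possible because the groups share no replicate numbers. Hk2 was too low to test, and the 3 lactate genes, at under 10 CPM, have wide intervals.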
